A study of Mus musculus with 24 samples.

Results

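Differential expression of miRNAs between the cortex and the striatum/thalamus was assessed in sham control mouse pups, with each region of a pup compared with the other region of the same pup. The comparison used 8 of the 24 miRNA-Seq libraries: the sham cortex (n = 4) and the sham striatum/thalamus (n = 4) of pups 2, 3, 6, and 8. Entries were kept where they named a mouse miRNA and averaged more than 10 counts per 1000000 counts (CPM) over these 8 libraries, which left 413 of the 1531 mouse entries. The last entries inside this limit were miR-6997-5p at 10.1 and miR-3057-3p at 10.1 CPM, and the first outside it were miR-299a-3p at 9.97 and miR-1188-3p at 9.97 CPM. The pups were CD1 mice of either sex at postnatal day 9. Sham pups were anesthetized with isoflurane, given bupivacaine, and had the neck opened and closed with no vessel cauterized, so they were not untouched animals. After a 2 h recovery with the dam they spent 30 min apart from her in warm normoxia, and tissue was taken 30 min later. Striatum and thalamus were dissected as a single block, so neither can be assigned a value of its own. Pups 1, 4, 5, and 7, which had the right carotid artery cauterized and then 30 min of 8% oxygen (hypoxic-ischemic brain injury, HIBI), served as a separate set in which the same regional difference was measured.

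A miRNA is cut from a hairpin transcript and guides the RNA-induced silencing complex to messenger RNAs, mostly through bases 2 to 8 from its 5′ end, the seed. Each hairpin can release an arm from its 5′ side (-5p) and one from its 3′ side (-3p), and miRNAs with the same seed share many targets. Many miRNAs lie in introns and are made along with the host gene, so that regional expression of a host or of a polycistronic cluster can carry several miRNAs. In the forebrain, some miRNAs mark neurons, others mark glial, vascular, or blood cells, and a further set follows position along the body axis.

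Sequences of miRNAs that stand for the main groups, with family members that were not called, are given here with the seed in capitals (RefSeq mature sequences, GRCm38.p6). The miR-128 hairpins lie in introns of R3hdm1 (chr1:128202361-128202430, plus strand) and Arpp21 (chr9:112118636-112118711, minus strand). They release the same 3p arm and distinct 5p arms, which makes it possible to follow each locus by its own arm.
miR-128-3p: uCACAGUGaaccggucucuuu
miR-128-1-5p: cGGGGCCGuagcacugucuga
miR-128-2-5p: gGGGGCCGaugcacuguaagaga
A seed shared by 6 tested miRNAs defines the miR-15/16 family, whose members come from several loci. The 5 shown have these sequences.
miR-16-5p: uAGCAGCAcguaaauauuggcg
miR-15a-5p: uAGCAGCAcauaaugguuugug
miR-195a-5p: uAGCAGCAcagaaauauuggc
miR-497a-5p: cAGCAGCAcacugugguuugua
miR-15b-5p: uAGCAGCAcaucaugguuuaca
The miR-181 guide strands likewise share a seed.
miR-181a-5p: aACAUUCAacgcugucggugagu
miR-181b-5p: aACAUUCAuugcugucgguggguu
miR-181c-5p: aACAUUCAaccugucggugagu
miR-181d-5p: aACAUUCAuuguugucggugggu
Among miRNAs with the opposite pattern, miR-10a-5p and miR-10b-5p are close relatives from the Hox clusters, miR-125a-5p and let-7e-5p are neighbors in Spaca6, and miR-1251-5p and miR-135a-2-3p both lie in introns of Rmst.
miR-10a-5p: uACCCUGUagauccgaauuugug
miR-10b-5p: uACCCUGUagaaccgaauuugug
miR-125a-5p: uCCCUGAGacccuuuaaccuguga
let-7e-5p: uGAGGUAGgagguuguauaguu
miR-1251-5p: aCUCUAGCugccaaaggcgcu
miR-135a-2-3p: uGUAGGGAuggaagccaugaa

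The sham cortex libraries held 2160270 to 3406624 mouse miRNA counts and the sham striatum/thalamus libraries 1607306 to 2373239, and in every pup the cortex library was the deeper one. The 10 most counted miRNAs took 55.6% to 59.8% of each library. The neuronal miR-124-3p was at 37143 to 49610.2 CPM in the 8 libraries. In a principal component analysis of the 413 miRNAs, the first component (52.4% of the variance) placed the 4 cortex libraries between -9.57 and -6.13 and the 4 striatum/thalamus libraries between 4.58 and 11.0. On the second component (20.2%) the striatum/thalamus libraries were spread widely, with pups 2 and 8 at 6.53 and 4.80 and pups 3 and 6 at -4.58 and -10.1. No replicate pair agreed within sampling noise, so each library counted once.

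Of the 413 miRNAs tested, 146 (35.4%) differed between the regions, with 69 (16.7%) higher and 77 (18.6%) lower in the cortex. A miRNA was called where edgeR's quasi-likelihood test, with the pup as a block, gave a Benjamini-Hochberg adjusted p under 0.05 and the fold change was above 1.5. All log2 differences are cortex minus striatum/thalamus, with the standard error, and all levels are normalised CPM. The median log2 difference over all 413 was 0.01, a value that the scaling itself sets close to 0. Within the 146, the median size of the log2 difference was 1.06, and all 4 pups changed the same way for 137. The 4 cortex libraries lay wholly above or below the 4 striatum/thalamus libraries for 161 of the tested miRNAs (39%) and for 122 of the 146. Differences ran from 2.90 for miR-128-1-5p to -3.64 for miR-7080-5p, and 35 of the called miRNAs were above 1 and 46 below -1. The miRNAs called higher made up 29.5% to 37.3% of the normalised counts of a cortex library and 13.4% to 21.2% of a striatum/thalamus library. Those called lower made up 12.4% to 14.5% and 22.4% to 27.5%. In bulk tissue, a lower share of cells of one type and less of a miRNA per cell cannot be told apart.

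**Figure D1:**
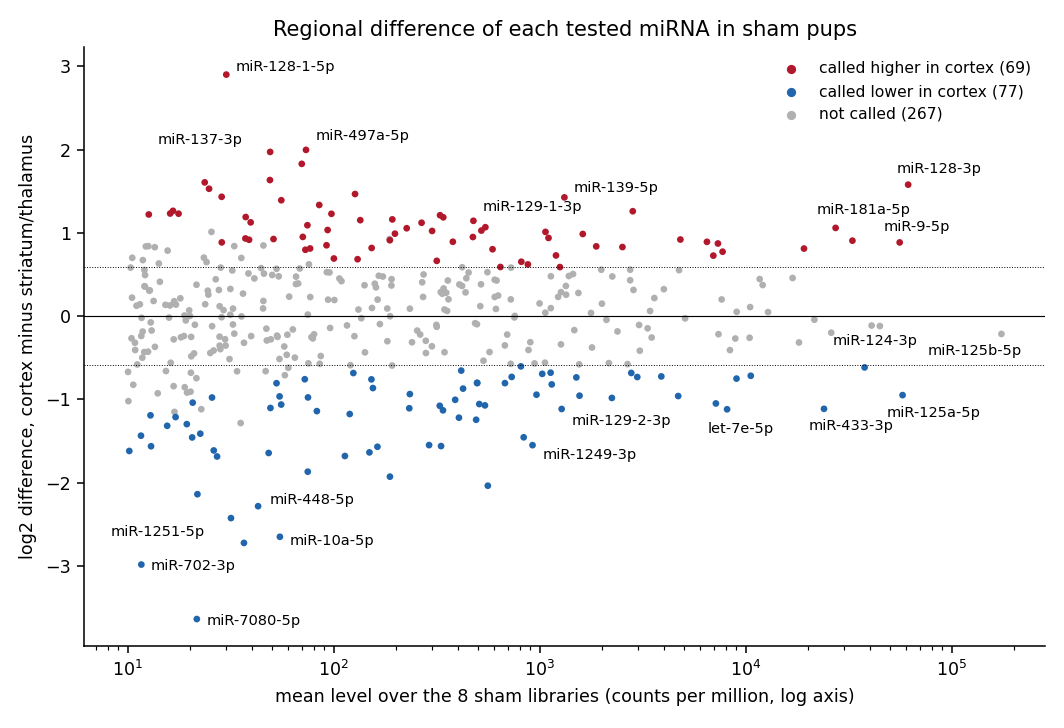
Mean level over the 8 sham libraries (CPM, log axis) against the log2 difference between cortex and striatum/thalamus for the 413 tested miRNAs. Red points were called higher in the cortex (69), blue points lower (77), and gray points were not called (267), with dotted lines at a 1.5-fold change. Differences of both signs occurred from the rarest to the most abundant miRNAs, with miR-128-3p and miR-125a-5p among the most abundant.

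The miR-128 miRNAs, which are enriched in brain and restrain neuronal excitability, were higher in the cortex at both loci. In the cortex of pups 2, 3, 6, and 8, the shared arm miR-128-3p was at 89189, 91583, 79211, and 105379 CPM, and in the striatum/thalamus of the same pups at 25963, 39066, 38712, and 21772 CPM. All cortex libraries lay far above all striatum/thalamus libraries, and the log2 difference was 1.58 ± 0.23 (adjusted p = 0.000481). For miR-128-2-5p, the arm particular to the Arpp21 hairpin, the cortex held 183, 181, 137, and 248 CPM and the striatum/thalamus 61.1, 63.8, 63.3, and 78.2 CPM, a difference of 1.47 ± 0.20 (adjusted p = 0.000314). The R3hdm1 arm miR-128-1-5p was rarer, at 55.5, 46.2, 35.1, and 74.7 CPM in the cortex and 12.3, 2.98, 7.03, and 7.06 CPM in the striatum/thalamus. Every cortex library was again above every striatum/thalamus library, and this was the largest positive difference among the called miRNAs, 2.90 ± 0.40 (adjusted p = 0.000321). It rests on 121 to 177 reads in each cortex library and 7 to 21 in each striatum/thalamus library.

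Neuron-enriched miRNAs as a list were mostly, but not all, higher in the cortex. Of 18 tested members of this list, 10 were called higher and 2 lower in the cortex (66.7% called, against 35.4% of all miRNAs). Higher calls made up 55.6% of the list, against 16.7% of all miRNAs. The median log2 difference was 0.83 beside 0.01 over all miRNAs, and 7 of the 18 differences were negative. Several members are arms of the same hairpins and are not independent. The list summed to 207236 to 248896 CPM in the cortex and 106613 to 172879 CPM in the striatum/thalamus, with no overlap. MiR-128-3p made up a large part of this sum, and the sum without it was not examined. MiR-137-3p, which acts in neuronal maturation, was at 66.4, 64.6, 99.5, and 79.8 CPM in the cortex and 31.1, 22.5, 8.43, and 20.7 CPM in the striatum/thalamus, a difference of 1.97 ± 0.38 (adjusted p = 0.00187). The synaptic miR-218-5p, from hairpins in Slit2 and Slit3, was at 351, 481, 602, and 401 CPM against 187, 205, 246, and 151 CPM, with a difference of 1.21 ± 0.18 (adjusted p = 0.000481). MiR-138-5p, a regulator of dendritic spine size, differed by 1.05 ± 0.24 (adjusted p = 0.00522). In each of these 3 miRNAs, all cortex libraries were above all striatum/thalamus libraries. MiR-139-5p, from an intron of the phosphodiesterase gene Pde2a (chr7:101475376-101475443, plus strand), is not on the list but had the smallest p of any miRNA higher in the cortex. It was at 2409, 1938, 1693, and 1596 CPM in the cortex and 1063, 643, 587, and 605 CPM in the striatum/thalamus, and differed by 1.42 ± 0.17 (adjusted p = 0.000232). Its 3p arm differed by 1.15 ± 0.19 (adjusted p = 0.000927).

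The principal neurogenic miRNAs, miR-124 and miR-9, did not behave alike. MiR-124-3p was at 38191, 40558, 40472, and 37143 CPM in the cortex and 38834, 41197, 49610.2, and 40272 CPM in the striatum/thalamus, and was not called (-0.11 ± 0.18, adjusted p = 0.629). The other arm, miR-124-5p, was called higher in the cortex, at 263 ± 52.7 CPM in the cortex and 133 ± 33.9 CPM in the striatum/thalamus (mean ± SD, n = 4). MiR-9-5p was at 74738, 59046, 67905, and 83052 CPM in the cortex and 28216, 44133, 61265, and 28144 CPM in the striatum/thalamus. Pup 6 had nearly equal levels and the groups overlapped, although the difference of 0.88 ± 0.25 (adjusted p = 0.0157) was called. That call was lost without pup 2 or without pup 8, and so was the call of miR-9-3p (0.77 ± 0.26).

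The miR-129 loci gave arms that differed in opposite directions. MiR-129-1-3p had no RefSeq mature sequence, so how reads were divided between these loci could not be checked. MiR-129-1-3p was at 659, 671, 408, and 912 CPM in the cortex and 324, 283, 250.2, and 302 CPM in the striatum/thalamus, a difference of 1.14 ± 0.19 (adjusted p = 0.001). MiR-129-2-3p was at 719, 867, 799, and 820.0 CPM in the cortex and 2106, 1618, 1418, and 1869 CPM in the striatum/thalamus, a difference of -1.12 ± 0.18 (adjusted p = 0.000868). Neither pair of groups overlapped. The Mir129-2 hairpin (chr2:94241364-94241453, minus strand) overlaps Mir129b on the other strand (chr2:94241378-94241442, plus strand), and miR-129b-5p was also lower in the cortex (-0.76 ± 0.23, adjusted p = 0.0213), a call lost without pup 2, without pup 3, or without pup 8. MiR-129-5p, which both miR-129 loci can release, was at 7072, 6959, 6553, and 8244 CPM and 9944, 8858, 9710.2, and 9659 CPM and was not called (-0.41, adjusted p = 0.0718). How reads were assigned to the strands of the Mir129-2 locus cannot be checked from counts, so the miR-129b-5p call may not be a separate measurement. The miRNAs read from the opposite strands of this locus have different seeds but are complementary over most of their length.
miR-129-2-3p: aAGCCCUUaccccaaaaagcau
miR-129b-5p: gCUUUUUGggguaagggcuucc

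**Figure D2:**
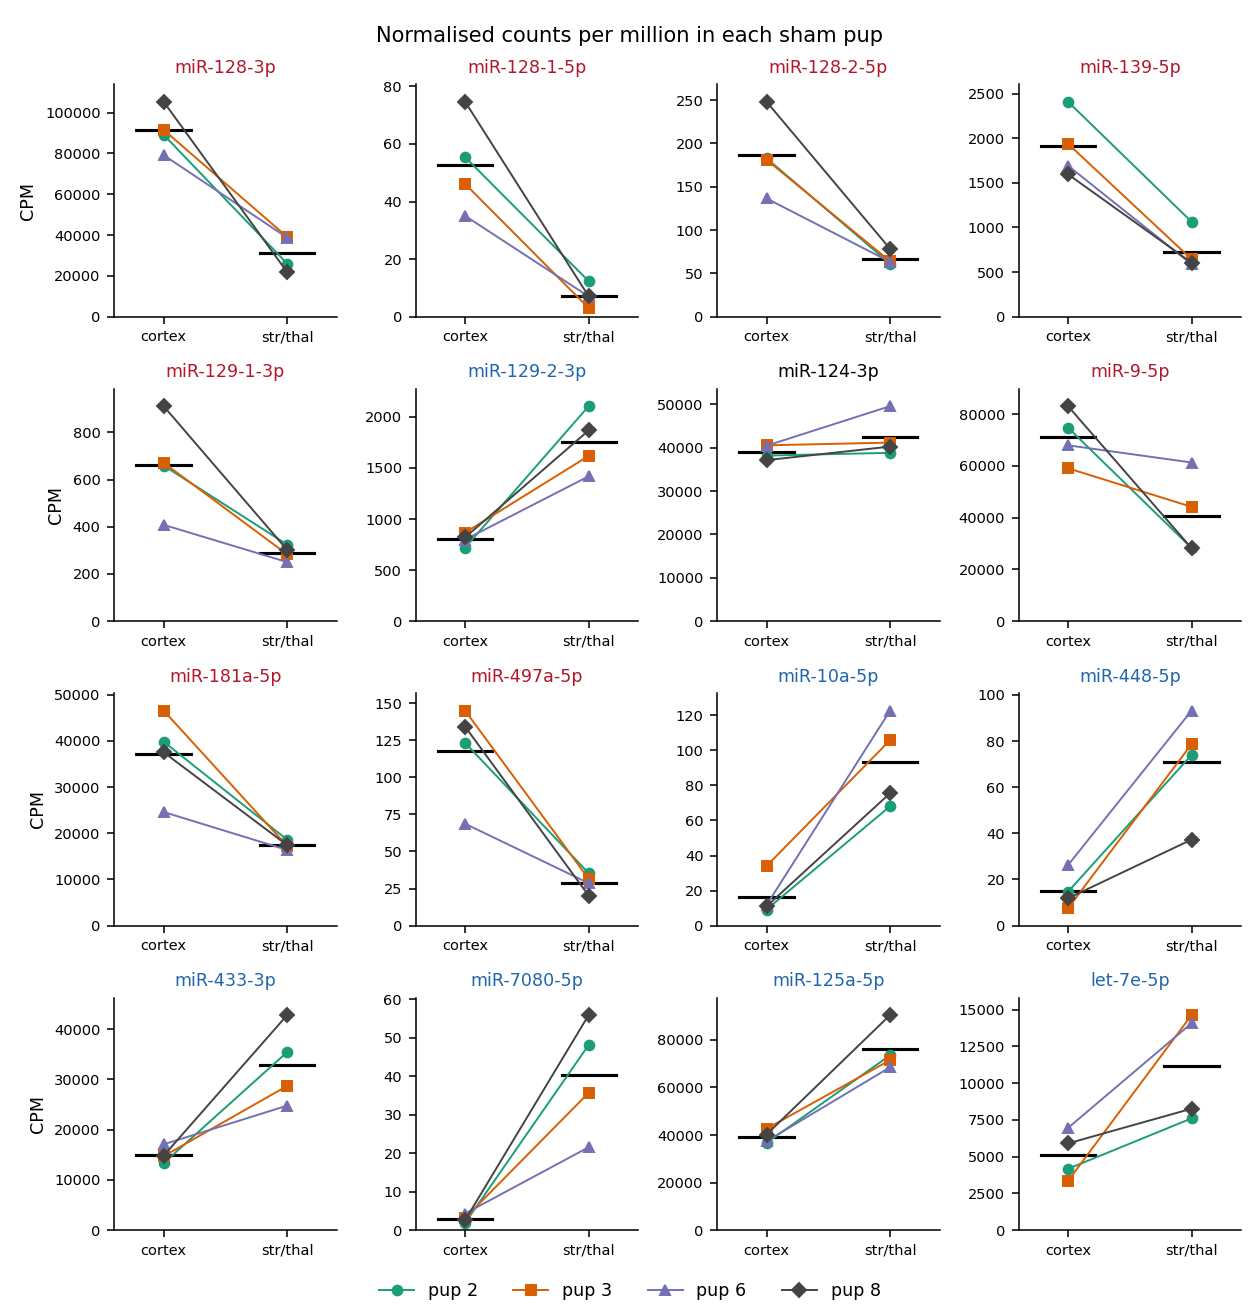
Normalised CPM of 16 miRNAs in the cortex and the striatum/thalamus (str/thal) of sham pups 2, 3, 6, and 8, with a line joining the regions of each pup and a black bar at each mean. Titles are red where the miRNA was called higher in the cortex, blue where lower, and black where not called, and each vertical axis starts at 0. MiR-128-3p was at 79211 CPM or more in the cortex and 39066 CPM or less in the striatum/thalamus, whereas miR-124-3p was near level in all 4 pups.

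Families that share a seed were then compared. The families and some members named here were chosen after their values were seen. Among the 353 tested miRNAs with a sequence, 11 seeds were shared by 3 or more tested miRNAs, 45 in all. Calls went one way only in 6 of the 11 families (5 higher and 1 lower in the cortex), both ways in 3, and 2 had no call. These 3 families with mixed calls were let-7, miR-30 with miR-384-5p, and miR-25/92. In each of the families of miR-125, miR-99, and miR-148 only 1 member was called, so a single direction was certain there.

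All 6 tested members of the miR-15/16 family, which represses cell cycle genes, had positive log2 differences. Of these, 4 were called higher in the cortex, against 16.7% of all miRNAs. MiR-497a-5p was at 123, 145, 68.7, and 134 CPM in the cortex and 35.3, 31.5, 28.6, and 20.2 CPM in the striatum/thalamus (2.00 ± 0.28, adjusted p = 0.000364). Its neighbor on chromosome 11, miR-195a-5p, was at 97.6, 126, 74.4, and 136 CPM and 21.2, 34, 50.1, and 20.7 CPM (1.83 ± 0.34, adjusted p = 0.00146). Both had cortex libraries wholly above the striatum/thalamus libraries. MiR-16-5p was at 4378, 3658, 3062, and 4415 CPM in the cortex and 1144, 1615, 3169, and 1171 CPM in the striatum/thalamus, where pup 6 reached the cortical range (1.26 ± 0.29, adjusted p = 0.0054). MiR-15a-5p differed by 1.43 ± 0.50 (adjusted p = 0.0369). MiR-15b-5p (0.28, adjusted p = 0.198) and miR-322-5p (0.55, adjusted p = 0.194) were not called.

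The miR-181 family and miR-221 and miR-222 were also higher in the cortex, with 7 of 9 tested members called higher and none lower (77.8%, against 35.4% of all miRNAs). All 14 entries of this list, tested or not, summed to 34667 to 60324 CPM in the cortex and 23351 to 25108 CPM in the striatum/thalamus. MiR-181a-5p was at 39845, 46591, 24609.5, and 37554 CPM in the cortex and 18578, 17229.8, 16376, and 17413 CPM in the striatum/thalamus (1.06 ± 0.19, adjusted p = 0.00146). The striatum/thalamus values were tightly grouped, while cortex pup 6 stood below the other cortex libraries. MiR-181b-5p differed by 0.89 ± 0.20 (adjusted p = 0.00522) and miR-181c-5p by 0.89 ± 0.17 (adjusted p = 0.00187), whereas miR-181d-5p, at 0.58 with an adjusted p of 0.0354, fell just short of a 1.5-fold change. MiR-221-3p, which represses the growth factor receptor Kit and a cyclin kinase inhibitor, was at 1467, 1578, 1388, and 1333 CPM and 736, 1006, 640.1, and 671 CPM (0.94 ± 0.17, adjusted p = 0.00142). Its partner miR-222-3p was not called (0.45, adjusted p = 0.0727).

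MiRNAs of the miR-17/92 clusters and their paralogs, which promote proliferation, were called higher in the cortex for 5 of 8 tested members and lower for none (62.5% called, against 35.4% of all miRNAs and 16.7% higher). All 24 entries of these clusters, tested or not, summed to 2522 to 3128 CPM in the cortex and 1494 to 2217 CPM in the striatum/thalamus. All 4 tested miRNAs with the miR-17 seed were called: miR-17-5p (1.03), miR-20a-5p (1.23), miR-93-5p (0.73), and miR-106b-5p (1.13). The miR-20a-5p call was lost without pup 6 or pup 8 or with a GC term in the fit, that of miR-106b-5p without pup 2 or pup 8, and that of miR-93-5p without pup 8. The calls divided within the miR-25/92 seed, where miR-25-3p was higher (0.80 ± 0.22, adjusted p = 0.0123), miR-92b-3p lower (-0.73 ± 0.22, adjusted p = 0.0215), and miR-92a-3p not called (-0.24).

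Of 12 tested miR-29 and miR-30 miRNAs, 5 were called higher and none lower (41.7% called, close to the 35.4% of all miRNAs), and all 12 had positive log2 differences. MiR-29a-3p, which targets extracellular matrix and DNA methylation genes, was at 1482, 1139, 1634, and 1447 CPM in the cortex and 689, 699.7, 601, and 835 CPM in the striatum/thalamus (1.01 ± 0.18, adjusted p = 0.00142). MiR-30a-5p differed by 0.95 ± 0.18 (adjusted p = 0.00146), miR-30b-5p by 1.03 ± 0.20 (adjusted p = 0.00199), miR-30d-5p by 0.73 ± 0.18 (adjusted p = 0.00835), and miR-30e-5p by 1.19 ± 0.30 (adjusted p = 0.00876). The miR-30d-5p call was lost without pup 3 and the miR-30e-5p call without pup 8. MiR-30c-5p, at 0.31 with an adjusted p of 0.141, was not called although its groups did not overlap. MiR-384-5p, which has the miR-30 seed and acts in synaptic plasticity, went the other way, at 846 ± 156 CPM in the cortex and 1412 ± 536 CPM in the striatum/thalamus (-0.68 ± 0.21, adjusted p = 0.023). The groups overlapped there, and the call was lost without pup 3 or pup 6. It belongs to a list of 6 tested activity-regulated miRNAs in which only miR-132-5p was called higher (0.69 ± 0.21, adjusted p = 0.0226), a call lost without pup 2, without pup 6, or without pup 8. Of this list 33.3% were called, close to the 35.4% of all miRNAs. MiR-132-3p, at 3118, 2854, 3602, and 3445 CPM in the cortex and 2615, 2592, 1694, and 2050.1 CPM in the striatum/thalamus, had an adjusted p of 0.0387 but a log2 difference of 0.56, under the 1.5-fold limit.

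The let-7 family, which rises as cells differentiate, was split. Of 17 tested members, 3 were called higher and 1 lower in the cortex (23.5% called, against 35.4% of all miRNAs), with a median of 0.20. Let-7e-5p was at 4159, 3338, 6940.5, and 5891 CPM in the cortex and 7597, 14629.7, 14073, and 8255 CPM in the striatum/thalamus (-1.12 ± 0.24, adjusted p = 0.00382). Striatum/thalamus pups 3 and 6 held the highest values, and no cortex library reached the lowest striatum/thalamus library. Let-7i-5p had the reverse pattern, at 11754, 8123, 7683, and 10117 CPM and 3869.7, 6154, 6789, and 4092 CPM (0.87 ± 0.24, adjusted p = 0.0134), a call lost without pup 2. Both let-7i-3p (1.61 ± 0.39, adjusted p = 0.00675) and let-7j (1.07 ± 0.26, adjusted p = 0.00751) were also higher in the cortex. The let-7j and let-7i-5p sequences are alike, and how reads were divided between them cannot be checked from counts.
let-7i-5p: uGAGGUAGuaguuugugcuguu
let-7j: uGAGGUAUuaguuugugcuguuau
The abundant let-7a-5p (-0.20, adjusted p = 0.5), let-7c-5p (-0.12, adjusted p = 0.697), and let-7g-5p (0.37, adjusted p = 0.263) were not called.

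In the genome, let-7e (chr17:17830352-17830444, plus strand) lies next to miR-125a (chr17:17830812-17830879, plus strand) within Spaca6, and the 5p arms of both were lower in the cortex. Let-7e-3p (-0.27, adjusted p = 0.391) and both arms of miR-99b, of the same cluster, were not called (-0.32 for the 5p and 0.08 for the 3p arm). MiR-125a-5p, an ortholog of the nematode timing regulator lin-4, was at 36676, 42632, 37375, and 40189 CPM in the cortex and 73609, 71564, 68547, and 90540.5 CPM in the striatum/thalamus (-0.95 ± 0.18, adjusted p = 0.00187), with no overlap. Its 3p arm differed by -0.86 ± 0.18 (adjusted p = 0.00327). MiR-125b-5p has the same seed and took more counts than any other miRNA, at 160648 ± 18018 CPM in the cortex and 187374 ± 30102 CPM in the striatum/thalamus, but was not called (-0.21, adjusted p = 0.413). MiR-125b-1-3p was called lower (-0.73 ± 0.17, adjusted p = 0.00537), a call that ended with a GC term in the fit (-0.48), and miR-99a-5p, from a different chromosome, higher (0.81 ± 0.20, adjusted p = 0.00722). Over the 9 tested miR-125, miR-99, and miR-100 miRNAs, 1 was called higher and 3 lower (44.4% called, close to the 35.4% of all miRNAs).

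MiRNAs lower in the cortex included several that follow body position or a defined host gene. MiR-10a-5p and miR-10b-5p lie in the Hox clusters (chr11:96317165-96317274, plus strand, and chr2:74726070-74726137, plus strand) and are typical of hindbrain and spinal cord. MiR-10a-5p was at 9.17, 34, 11.7, and 11 CPM in the cortex and 68.2, 106, 123, and 75.6 CPM in the striatum/thalamus, a difference of -2.65 ± 0.33 (adjusted p = 0.000247). Cortex pup 3 was above the other cortex libraries and still below every striatum/thalamus library. MiR-10b-5p was at 28.9, 52.7, 86.1, and 37.6 CPM and 88.7, 112, 139.6, and 54.5 CPM, with overlapping groups (-0.98 ± 0.25, adjusted p = 0.00956), and its call was lost without pup 2. All 8 Hox cluster entries, of which 2 were tested, summed to 38 to 98.3 CPM in the cortex and 140.2 to 274 CPM in the striatum/thalamus.

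Introns of the serotonin receptor gene Htr2c hold miR-448, of which miR-448-5p (chrX:147158210-147158321, plus strand) was at 14.7, 7.49, 26.2, and 11.8 CPM in the cortex and 74, 78.7, 93.3, and 37.3 CPM in the striatum/thalamus (-2.28 ± 0.35, adjusted p = 0.000641). The groups were apart, although striatum/thalamus pup 8 was well below the other striatum/thalamus libraries. MiR-448-3p differed by -1.14 ± 0.28 (adjusted p = 0.00685). The same gene holds miR-1298, and miR-1298-5p (-0.10, adjusted p = 0.715) and miR-1298-3p (-0.71, adjusted p = 0.0938) were not called. MiR-1264-5p had the only positive difference of the list (0.79, adjusted p = 0.34). Of 5 tested Htr2c miRNAs, 2 were called lower and none higher (40% called, close to the 35.4% of all miRNAs).
miR-448-5p: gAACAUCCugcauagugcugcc
miR-448-3p: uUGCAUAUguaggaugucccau

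Rmst, a long noncoding RNA of the developing brain, carries miR-1251 (chr10:92137140-92137223, minus strand) and miR-135a-2 (chr10:92072086-92072185, minus strand) in its introns, and both were lower in the cortex. MiR-1251-5p was at 10.5, 13.7, 12.8, and 3.8 CPM in the cortex and 74.6, 48.5, 46.9, and 42.9 CPM in the striatum/thalamus (-2.43 ± 0.38, adjusted p = 0.000671). MiR-135a-2-3p was at 11, 6.86, 21.9, and 2.95 CPM and 54.1, 99.5, 57.6, and 39.3 CPM (-2.72 ± 0.44, adjusted p = 0.000868). Neither pair of groups overlapped. MiR-135a-1-3p, numbered for another miR-135a hairpin (-1.64), and miR-135a-5p (-1.25) were also called lower in the cortex.

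The largest negative difference was that of miR-7080-5p, which lies in an exon of Cpne7 (chr8:123130106-123130172, plus strand). It was at 1.83, 3.12, 4.27, and 2.53 CPM in the cortex and 48.2, 35.7, 21.6, and 56 CPM in the striatum/thalamus, a difference of -3.64 ± 0.47 (adjusted p = 0.000247), and rests on 4 to 15 reads in each cortex library against 46 to 111. MiR-702-3p, from an exon of Plod3, was similarly rare in the cortex, at 1.37, 1.25, 5.13, and 1.69 CPM, and was at 20.6, 24.2, 5.15, and 33.8 CPM in the striatum/thalamus (-2.98 ± 0.71, adjusted p = 0.00603). In pup 6 its levels in the regions were almost the same. More counts support miR-1224-5p, an intronic miRNA of Vwa5b2 that needs no Drosha cleavage and had the smallest p of all tested. It was at 54.1, 78.3, 82.1, and 96.2 CPM in the cortex and 251, 371, 218, and 348 CPM in the striatum/thalamus (-1.93 ± 0.21, adjusted p = 0.000232). MiR-1249-3p was at 463 ± 86.7 CPM in the cortex and 1381 ± 389 CPM in the striatum/thalamus (mean ± SD, n = 4), and miR-3099-3p, from an intron of the imprinted gene Usp29, at 444 ± 43.6 CPM in the cortex and 1227 ± 201 CPM in the striatum/thalamus. For both, no cortex library reached the lowest striatum/thalamus library. MiR-669c-5p differed by -1.87 ± 0.26 (adjusted p = 0.000323) and miR-700-3p by -1.22 ± 0.19 (adjusted p = 0.000804), with groups apart.

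The imprinted Dlk1-Dio3 domain on chromosome 12 encodes a large miRNA cluster of placental mammals, read from the maternal chromosome and strong in neurons. Of its 69 tested miRNAs, 4 were called higher and 12 lower in the cortex (23.2%, against 35.4% of all miRNAs), with a median of -0.02. All 103 entries of the domain, tested or not, summed to 154182 to 170246 CPM in the cortex and 196516 to 215478 CPM in the striatum/thalamus, without overlap. The sum was carried by a few abundant members. MiR-433-3p was at 13313, 14695, 17061, and 14784 CPM in the cortex and 35459.7, 28712, 24777, and 42838 CPM in the striatum/thalamus (-1.11 ± 0.21, adjusted p = 0.00146). MiR-434-3p, at 29807 ± 3922 CPM in the cortex and 45619.5 ± 5115 CPM in the striatum/thalamus, was called lower (-0.62 ± 0.18, adjusted p = 0.0207), a call lost without pup 2 or without pup 8. The similarly abundant miR-487b-3p was level, at 21062 ± 1889 CPM in the cortex and 21963 ± 4249 CPM in the striatum/thalamus (-0.04 ± 0.18, adjusted p = 0.854).

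Calls in both directions came from across the domain. MiR-1188-5p, in an intron of the long noncoding RNA Rian, was at 40.3, 63.3, 53.6, and 57.8 CPM in the cortex and 126, 205, 189.8, and 170.4 CPM in the striatum/thalamus (-1.68 ± 0.20, adjusted p = 0.000232), with similar ratios in the 4 pups. MiR-770-5p (-0.87) and miR-770-3p (-1.05), in an exon of Meg3, and the Mirg members miR-134-5p (-0.82), which limits dendritic spine growth, and miR-382-5p (-0.75) were also called lower. The calls of miR-770-5p and miR-382-5p were lost without pup 2 or 8 and without pup 3 or 6, respectively. With a GC term in the fit, the calls of miR-770-5p (-0.35), miR-770-3p (-0.37), and miR-134-5p (-0.57) ended. MiR-323-5p differed by -1.56 ± 0.20 (adjusted p = 0.000247), miR-485-5p by -1.07 ± 0.21 (adjusted p = 0.00187), and miR-487b-5p by -1.46 ± 0.35 (adjusted p = 0.00664). MiR-673-5p was called higher, at 56.4, 90.8, 66.7, and 81.5 CPM in the cortex and 23.5, 28.1, 14.5, and 30.8 CPM in the striatum/thalamus (1.63 ± 0.28, adjusted p = 0.00119). The other members called higher were miR-376c-3p (0.92), miR-300-3p (0.65), and miR-434-5p (0.59), and their calls were lost without pup 2, 6, or 8, without pup 3 or 8, and without pup 3, 6, or 8, respectively. In the densest stretch of the domain (29 hairpins with tested miRNAs within chr12:109709060-109747960), 44 tested miRNAs had a RefSeq mature sequence. Of these 44, 1 was called higher and 6 lower, against 16.7% and 18.6% of all miRNAs. The count leaves out members without a sequence, such as miR-376c-3p and miR-485-5p. Clusters of 3 or more hairpins within 10 kb were few outside this domain, and those on the X chromosome held no call. In the Mcm7 cluster (chr5:138165321-138165818), which holds miR-25, miR-93, and miR-106b, 3 of 4 tested miRNAs with a sequence were called higher. In the cluster of miR-23a, miR-27a, and miR-24-2 (chr8:84208518-84208921), 3 of 5 such miRNAs were called higher. Over all tested miRNAs, 16.7% were called higher.

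Arms of a hairpin usually, but not always, differed in the same direction. Both arms were tested for 102 hairpins, and the signs matched in 75 (73.5%), with Pearson's r = 0.552 across hairpins, which are not independent replicates. Both arms were called for 17 hairpins, 14 with the same sign and 3 with opposite signs. The 3 were miR-7b, miR-672, and miR-434, chosen for this after their values were seen. MiR-7b-5p, of a family rich in hypothalamus and other neuroendocrine tissue, was at 929.8, 639, 1098, and 547 CPM in the cortex and 1205, 1284, 1298, and 1221 CPM in the striatum/thalamus (-0.69 ± 0.20, adjusted p = 0.0156). Its passenger arm miR-7b-3p was at 70.1, 90.8, 61.6, and 93.3 CPM and 36.4, 31.1, 13.1, and 48.9 CPM (1.39 ± 0.29, adjusted p = 0.00327). The 5p values in the striatum/thalamus were close together and above all cortex values, while the 3p values were all lower than in the cortex.
miR-7b-5p: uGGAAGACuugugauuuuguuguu
miR-7b-3p: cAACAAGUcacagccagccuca
MiR-672-5p was lower in the cortex (-1.06 ± 0.22, adjusted p = 0.00263) and miR-672-3p higher (0.92 ± 0.29, adjusted p = 0.0262). For miR-434 the pattern was the reverse, with the 5p arm higher (0.59 ± 0.16, adjusted p = 0.0132) and the far more abundant 3p arm lower. The call of miR-7b-5p was lost without pup 3 or without pup 8, and that of miR-434-5p without pup 3, 6, or 8. Along with miR-7b-5p, miR-7a-5p (-0.73 ± 0.23, adjusted p = 0.0226) and miR-375-3p (-1.11 ± 0.25, adjusted p = 0.00454), typical of endocrine cells, were called lower (the former lost without pup 3 or without pup 8), so that 1 of 6 tested neuroendocrine miRNAs was higher and 3 were lower (against 16.7% and 18.6% of all miRNAs).

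Lists for other cells that a dissected block can hold were examined next. Of 4 tested myeloid miRNAs, 1 was called, miR-21a-5p, at 407, 271, 343, and 444 CPM in the cortex and 142, 175, 214, and 140.2 CPM in the striatum/thalamus (1.12 ± 0.22, adjusted p = 0.00203). The myeloid list summed to 911 to 1179.6 CPM and 568 to 1171 CPM, and its defining member miR-223-3p was not called (0.65, adjusted p = 0.186). Of 4 vascular miRNAs, endothelial miR-126a-3p was called higher (0.83 ± 0.25, adjusted p = 0.0208), a call lost without pup 2 or without pup 8, and the list summed to 4752 to 6779.7 CPM and 3042 to 5452 CPM. Of 4 mesenchymal miRNAs of meninges and other connective tissue, miR-199a-5p was called higher (1.53 ± 0.39, adjusted p = 0.00917), and the list summed to 149 to 229 CPM and 75.8 to 180.4 CPM. The sums of these 3 lists overlapped between the regions. In each list 25% of the tested members were called, against 35.4% of all miRNAs. The defining microglial miR-142a-3p had 5 reads over all 8 libraries, and miR-142a-5p had 2, so neither was tested. MiR-199a-3p and miR-199b-3p have the same sequence, so their counts are a single measurement shared out.

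All 5 tested oligodendrocyte miRNAs had negative differences. Of these, 2 were called lower, miR-219b-5p (-1.32 ± 0.45, adjusted p = 0.0346) and miR-219a-2-3p (-0.98 ± 0.27, adjusted p = 0.0132), both lost without pup 3 or without pup 6, and 40% called is close to the 35.4% of all miRNAs. The list summed to 1517 to 2556 CPM in the cortex and 2285 to 5127 CPM in the striatum/thalamus, ranges that overlap. Of 5 choroid plexus and ependymal miRNAs, miR-34b-3p was called lower, at 71.9, 91.1, 87.2, and 66.3 CPM in the cortex and 165, 182, 265, and 375 CPM in the striatum/thalamus (-1.57 ± 0.25, adjusted p = 0.000804). The choroid plexus miRNA miR-211-5p had 169 reads over all 8 libraries and was not tested. Choroid plexus miR-204-5p (0.15, adjusted p = 0.548) was not called, and the list sums overlapped, at 2021 to 2613 CPM and 1934 to 2682 CPM. Muscle miR-206-3p was called lower, at 6.87, 11.9, 6.27, and 6.75 CPM against 18.2, 48.9, 41.7, and 33.8 CPM (-2.14 ± 0.38, adjusted p = 0.00123), while miR-133a-3p had 43 reads in all and was not tested, and miR-1a-3p was not called (-0.66, adjusted p = 0.287). The miR-200 and miR-183 lists had no call among 3 and 2 tested members (0%). Of the 5 choroid plexus and ependymal miRNAs 20% were called, and of the 2 tested muscle miRNAs 50%, against 35.4% of all miRNAs.

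Red blood cell miRNAs did not move together, although 3 of 4 tested were called lower (75% called, against 35.4% of all miRNAs). The list summed to 769 to 1136 CPM in the cortex and 1309 to 1746 CPM in the striatum/thalamus, without overlap. The paired entries miR-486a-5p (-0.80 ± 0.19) and miR-486b-5p (-0.81 ± 0.18), which had almost equal counts in every library and may share reads, were called lower in the cortex, and so was miR-486a-3p (-0.98), a call lost on leaving out any single pup. MiR-451a, the most erythroid of the list, was at 176, 307, 162, and 244 CPM in the cortex and 58.8, 131, 349.6, and 66.1 CPM in the striatum/thalamus, and was not called (0.93 ± 0.40, adjusted p = 0.0865). It was higher in the cortex in pups 2, 3, and 8 and lower in pup 6. The part of any of these cell types in the other differences was not tested.

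**Figure D3:**
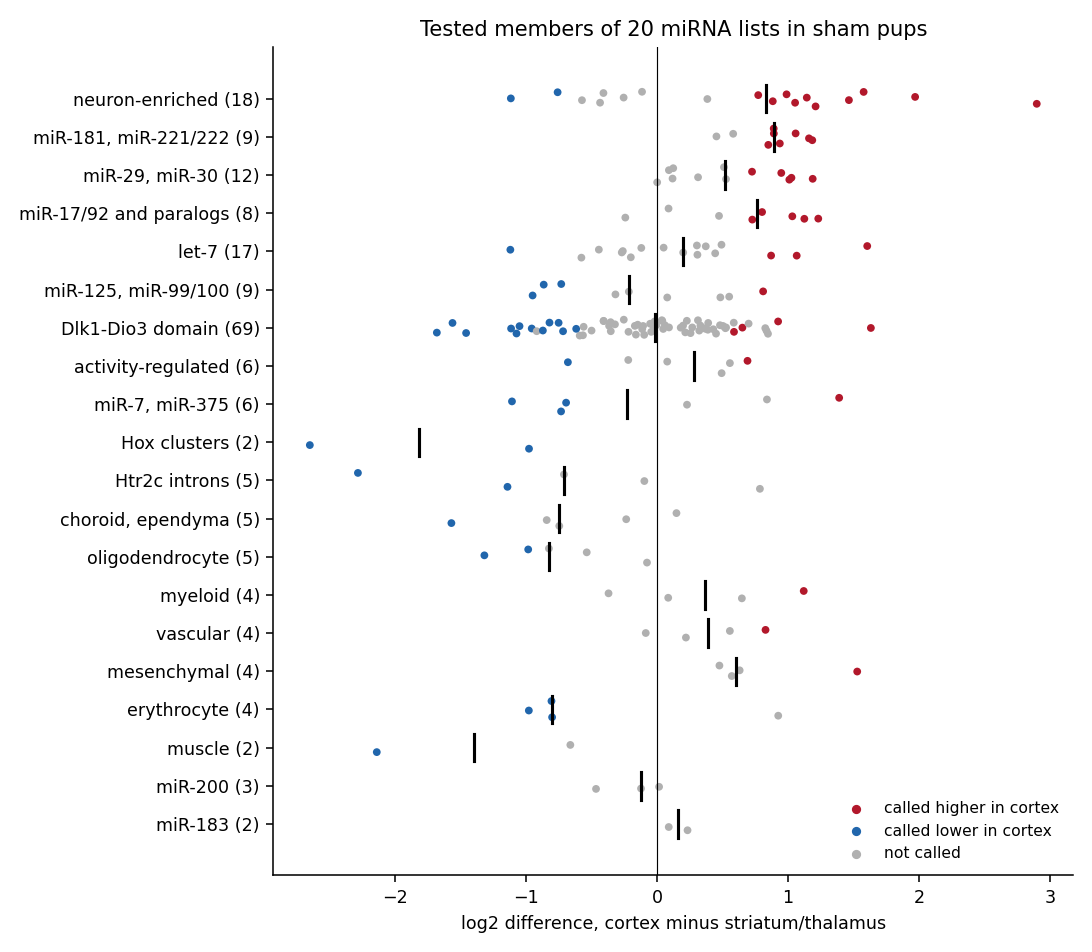
Log2 difference between cortex and striatum/thalamus in sham pups for the tested members of 20 miRNA lists, with the number tested in parentheses. Each point is 1 miRNA, red where called higher in the cortex, blue where called lower and gray where not called, and black bars mark list medians. The list of miR-181, miR-221, and miR-222 and that of miR-29 and miR-30 lay wholly above 0, while the 69 Dlk1-Dio3 miRNAs were spread on both sides of 0.

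The same regional difference was then measured in the 4 HIBI pups, which share no library with the sham pups. Of the 413 miRNAs, 152 (36.8%) were called there, 69 higher and 83 lower in the cortex. With upper quartile scaling in place of TMM, the HIBI calls were 86 higher and 64 lower. Of the 146 sham calls, 117 were also called in HIBI in the same direction (80.1% of the sham calls and 77.0% of the HIBI calls), 56 higher and 61 lower, and none was called in the opposite direction. The sign was the same for 143 of the 146, and Pearson's r between the differences of the 413 miRNAs was 0.869. MiR-128-3p was at 67105, 82669.6, 95498, and 90709 CPM in the cortex of HIBI pups 1, 4, 5, and 7 and 20507, 31936, 32899, and 18981 CPM in their striatum/thalamus (1.72 ± 0.19, adjusted p = 0.000243). MiR-10a-5p was at 9.01, 6.53, 8.91, and 13.7 CPM and 57.8, 81.4, 77.1, and 48.3 CPM (-2.78 ± 0.38, adjusted p = 0.000547). For both miRNAs the groups did not overlap in either set of pups. MiR-10b-5p (-0.73), miR-128-1-5p (0.96, adjusted p = 0.0569), and miR-7b-5p (-0.86) had the same sign in HIBI but were not called.

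Of the sham calls, 3 had the opposite sign in HIBI, and each of these sham calls was lost when single pups were left out. MiR-6538 was at 116, 76.1, 13.1, and 40.5 CPM in the sham cortex and 3902, 82.9, 17.8, and 228 CPM in the sham striatum/thalamus, where pup 2 was far above every other library. Its difference of -2.04 ± 0.67 (adjusted p = 0.0307) was -0.99 without pup 2 and was then not called, the call was also lost without pup 6, and in HIBI the difference was 0.20. MiR-551b-5p differed by 1.23 in sham and -0.03 in HIBI, and miR-467d-3p by 1.22 and -0.11. Their sham calls were lost without pup 3 or pup 8, and without pup 2, 3, or 6, respectively.

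In the edgeR test of the region by injury interaction, no miRNA was called (0 of 413, 0%), with a smallest adjusted p of 0.992. DESeq2, the edgeR likelihood ratio test, and limma-voom likewise called none, and only the fit without a level filter called any, miR-375-3p and miR-6538. At an unadjusted p under 0.05 there were 6: miR-128-1-5p (-1.84 ± 0.56), miR-375-3p (-1.40), miR-6538 (2.31), miR-200c-3p (-1.36), miR-592-5p (1.46), and miR-668-5p (-1.30), each value being the HIBI log2 difference minus the sham one. For miR-128-1-5p, the HIBI striatum/thalamus libraries held 26.4, 39.7, 19.3, and 14.5 CPM against 12.3 CPM or less in the sham ones, while the cortex ranges overlapped.

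**Figure D4:**
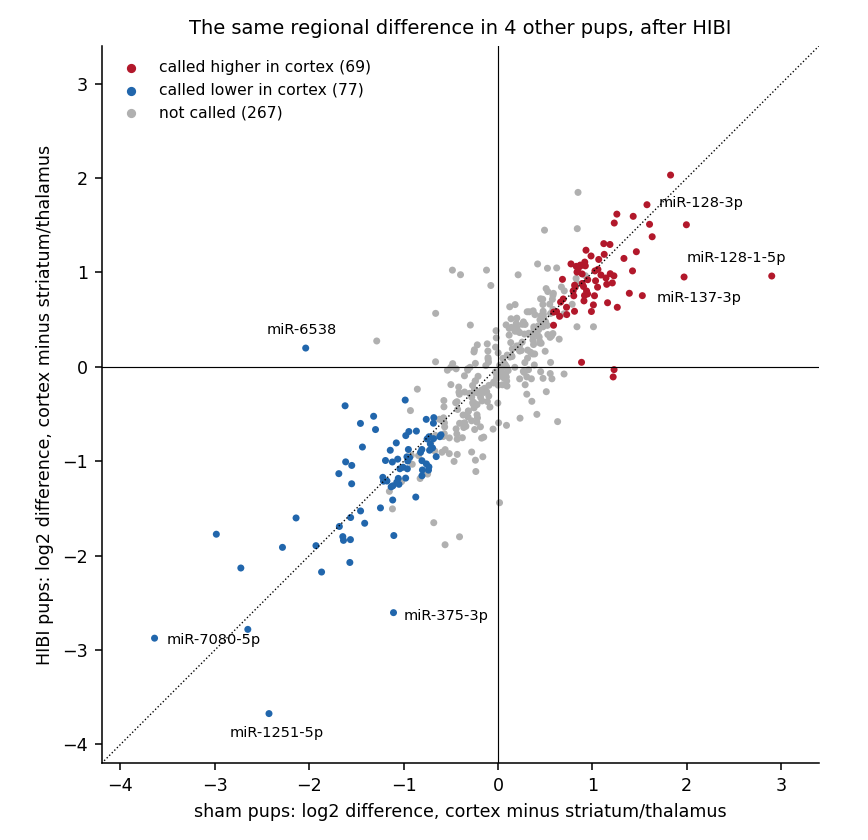
Log2 difference between cortex and striatum/thalamus in sham pups (horizontal axis) and in HIBI pups (vertical axis) for 413 miRNAs, colored by the call in sham pups, with the line of equal values dotted. Of the 146 colored points, 143 lie in the lower left or upper right quadrant, and miR-6538 is the farthest of the 3 exceptions.

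Properties of the miRNAs themselves also moved with the region. Among the 353 with a RefSeq sequence (85.5% of those tested), the median share of G and C bases was 46.7% for miRNAs called higher in the cortex, 54.5% for those called lower, and 50% for all. Across miRNAs, GC content and the log2 difference had Pearson's r = -0.331 and Spearman's rho = -0.346, and in HIBI Pearson's r = -0.340. A GC trend was then fitted to each library and set as an offset in place of TMM scaling (the GC term or GC correction). With it, 120 of the 353 were called (63 higher and 57 lower), of which 100 were among the 128 called without it. Changes under this fit also include the change of scaling. MiR-5126 (from -1.55 to 0.23) and miR-2137 (from -1.01 to 0.15), both very rich in G and C and picked out after their values were seen, changed sign and were not called. The depth gap between the regions and the GC trend were not separated, and their part in single differences was not tested. Calls were fewer among rare miRNAs, with 24 of 108 (22.2%) called at a mean under 30 CPM and 37 of 89 (41.6%) above 1000 CPM.

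**Figure D5:**
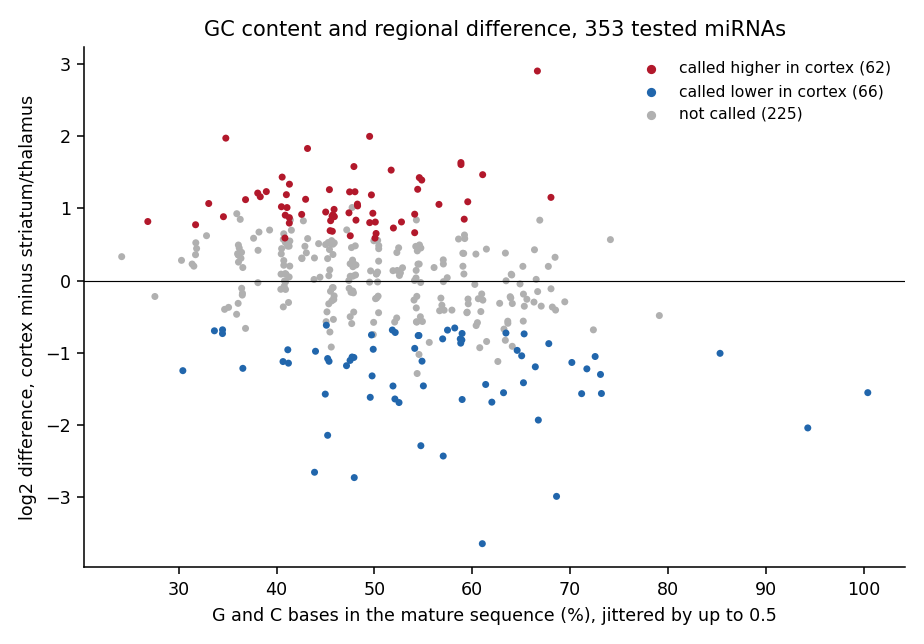
G and C bases of the mature sequence (percent, jittered by up to 0.5) against the log2 difference between cortex and striatum/thalamus for 353 tested miRNAs, colored by call. The 62 called higher had a median of 46.7% and the 66 called lower a median of 54.5%, and both colors overlapped over most of the range.

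The cerebellum of the same sham pups was set beside both regions. By library-size CPM, which unlike the values above was not TMM-scaled, the mean cerebellar level of the 69 miRNAs higher in the cortex was above the cortical mean for 32, between the regions for 19, and below the striatum/thalamus for 18. For the 77 lower in the cortex, the cerebellum was below the cortex for 34, between for 26, and above the striatum/thalamus for 17. MiR-16-5p, for instance, was at a mean of 8111 CPM in the cerebellum and miR-139-5p at 228 CPM, so that a higher level in the cortex went with either extreme.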

How the data were processed

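Raw miRNA counts were those deposited by the authors, who aligned reads to mature mouse miRNAs of miRBase with Bowtie2. Tool versions, adapter trimming, and how a read with more than 1 matching miRNA was counted are not given in the sources used here. The tables also hold the authors' edgeR comparisons of HIBI with sham (log fold change, level, p-value, and false discovery rate), which were not used. Cortex and striatum/thalamus counts were joined by miRNA, and 20 castor bean entries (28 counts, 0.000144% of the total) were left out. The 413 mouse miRNAs with a mean above 10 CPM were fitted in edgeR 4.0.16 (R 4.3.3) with TMM scaling, the pup as a block, and the quasi-likelihood test, two-sided. Sham and HIBI libraries were scaled and fitted separately, and only the interaction test used both. Called miRNAs had a Benjamini-Hochberg adjusted p under 0.05 and a fold change above 1.5. Both regions of a number come from the same animal. Deviations from the group means correlated within pups 2, 3, 6, and 8 at 0.115, -0.109, 0.292, and 0.181 across miRNAs. The highest correlation of the same cortex libraries with the striatum/thalamus of another pup was 0.029, 0.208, 0.269, and 0.018. For pup 3 this was above the value within the pup, and for pup 6 it was close to it. The scripts were tested on simulated data. DESeq2 1.42.0, limma 3.58.1, and other scalings and filters were tried as alternatives.

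The compared groups, miRNA lists, and named miRNAs were chosen with earlier results of these data known. Named miRNAs were the called ones with the 12 smallest p-values and the 5 largest changes in each direction, the 6 most abundant, and in each list the 3 most abundant and every called member. Others were named after their values were seen. Depth was 1607306 to 3406624 counts per sham library, and 1 library was made per region and pup. With the pup as a block, p-values measure how the regional difference varied from pup to pup. That variation includes any from dissection and library preparation. Hairpin positions are from RefSeq, GRCm38.p6, and 97 of the 115 named miRNAs had a mature sequence there. Adapter ligation can favor some sequences, and its part in the levels and in the regional differences was not tested.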

Additional observations from a re-analysis of the deposited data

Results flagged for a closer look

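Among 230 groups of 4 libraries examined for the named miRNAs, 14 held a library far from the other 3 by Dixon's test, where chance gives about 1 in 20. MiR-139-5p in striatum/thalamus pup 2 was at 1063 CPM against 587 to 643 in the other pups, miR-128-2-5p in striatum/thalamus pup 8 at 78.2 CPM against 61.1 to 63.8, miR-10a-5p in cortex pup 3 at 34.0 CPM against 9.17 to 11.7, and miR-206-3p in cortex pup 3 at 11.9 CPM against 6.27 to 6.87. MiR-702-3p in cortex pup 6 was at 5.13 CPM, against 1.25 to 1.69 in the other cortex libraries, and so all but reached its striatum/thalamus level in that pup.

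MiR-182-5p reached 207 CPM in cortex pup 2, against 22.2 to 44.6 in the other cortex libraries, and miR-200c-3p reached 78.7 CPM in striatum/thalamus pup 2, against 15.5 to 19.99. MiR-146a-5p was also highest in cortex pup 2, at 729 CPM against 577 to 583. MiR-181b-5p in cortex pup 6 was low, at 6387 CPM against 8958 to 9168. Striatum/thalamus pup 6 was low for miR-7a-2-3p, at 386 CPM against 594 to 630.3, and high for miR-487b-5p, at 43.1 CPM against 25.2 to 26.4. Let-7i-3p in cortex pup 3 was at 52.1 CPM against 29.1 to 30.2. Cortex pup 8 was high for miR-129b-5p, at 65.8 CPM against 49.0 to 51.3, and for miR-338-5p, at 506 CPM against 382 to 403.

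The tables also list castor bean miRNAs, which took 28 counts in the 8 sham libraries.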

How the results depend on the processing

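The count of 146 sham calls stayed within 1.5 times under every alternative but a mean above 100 CPM, which tested 215 miRNAs and called 89. Without the replicate block, that is with unpaired libraries, 142 were called in sham (135 shared with the paired fit), 129 in HIBI, and 0 for the interaction, and among named miRNAs the calls of miR-9-3p, miR-10b-5p, miR-7a-5p, miR-106b-5p, and miR-376c-3p were lost. Leaving out single pups gave 111 to 153 sham calls and 113 to 133 HIBI calls. Interaction calls were 0 except 2 with no filter on low counts (miR-375-3p, adjusted p = 0.0130 in edgeR, and miR-6538, 2.91e-06) and 6 at an unadjusted p. Library size only gave 57 higher and 81 lower sham calls, and upper quartile scaling 82 and 72, where miR-132-3p, miR-143-3p, and miR-451a were also called. The GC correction and the thinned counts were chosen after seeing the data, and thinning to equal depth left 136 calls. The 86 called miRNAs named by the rule gave 1335 values under the alternatives, each for 1 miRNA in 1 setting. The sign was kept in all of these and the call was lost in 91. With the GC correction, those losing it were miR-125b-1-3p, miR-132-5p, miR-134-5p, miR-20a-5p, miR-434-5p, miR-770-3p, miR-770-5p, and miR-9-3p.

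Beyond miR-5126 and miR-2137, which were called and changed sign with the GC correction, the sign changes listed here were of named miRNAs that were not called. The log2 fold change of mmu-miR-200c-3p went to -0.12 without the replicate block, -0.0193 with library size only, -0.0112 with RLE, -0.0120 with DESeq2, -0.0336 with limma-voom, and -0.21 with the GC correction. The GC correction also gave -0.0104 for mmu-miR-204-5p, -0.19 for mmu-miR-146a-5p, and -0.17 for mmu-miR-183-5p. The log2 fold change of mmu-miR-487b-3p was 0.0338 with upper quartile scaling and 0.0388 with no filter. The log2 fold change of mmu-miR-182-5p was -0.00341 with thinned counts. Leaving out single pups gave ranges across 0 for mmu-miR-146a-5p (-0.0796 to 0.33), mmu-miR-145a-5p (-0.28 to 0.0787), mmu-miR-182-5p (-0.0768 to 0.61), mmu-miR-183-5p (-0.28 to 0.70), mmu-miR-200c-3p (-0.12 to 0.19), mmu-miR-487b-3p (-0.16 to 0.0844), mmu-miR-34c-5p (-0.58 to 0.13), mmu-miR-429-3p (-0.32 to 0.27), mmu-miR-204-5p (-0.0150 to 0.27), mmu-miR-1298-5p (-0.21 to 0.0394), mmu-let-7a-5p (-0.40 to 0.0435), and mmu-let-7c-5p (-0.38 to 0.0974). Their causes were not tested. Rarer miRNAs were called less often (22.2% under 30 CPM).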
